A study of Homo sapiens with 2 samples.

Results

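The TRIM family of ubiquitin ligase genes was followed in hTERT-RPE1 cells, a telomerase-immortalised human retinal pigment epithelial line, after transfection with a miR-129-3p oligo or a control oligo. Members were the genes whose symbol is TRIM followed only by digits and that a probe set names as its single gene. The rule leaves out 1 such symbol, which is not described here. It found 126 of 54613 probe sets and 54 of 19775 genes. Where several probe sets named a gene, the one with the highest log2(signal + 16), averaged over both arrays, gave its value. A gene was called measured at a signal of 100 or more on either array, which 41 of the 54 members were.

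Each group held 1 Affymetrix array. The miR-129-3p array came from cells given the miR-129-3p oligo for 72 h, labelled as miR-129-3p overexpression, and the control array from cells given the control oligo for 72 h. Both cultures carried the hTERT transgene of the line, grew in DMEM/F-12 with 10% fetal bovine serum and hygromycin B, and received their oligo with the lipid reagent RNAiMAX. With 1 array per group no value has a replicate error, no difference was tested, and each difference compares these arrays, not the conditions. Differences are log2(signal + 16) with miR-129-3p minus the same in control, a scale that makes differences of dim genes smaller. In whole cultures, fewer cells of a kind and less RNA per cell cannot be told apart.

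TRIM proteins are built from a RING finger, 1 or more B-boxes and a coiled coil, followed by a C-terminal domain that usually selects the target. The RING recruits an E2 enzyme and transfers ubiquitin, so most members act as E3 ligases, some attaching chains that mark proteins for the proteasome and some attaching chains that act as scaffolds in signalling. Several members restrict viruses directly or tune the pathways that sense viral RNA and DNA, and a subset of the family is itself induced by interferon. Other members work in chromatin, on microtubules, in neurons or in muscle.

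The transfected oligo is the first sequence of interest, since the arrays differ by it. The labels give only the name miR-129-3p, and RefSeq (GRCh38.p14) holds 2 mature forms under that name. One lies at chr7:128207920-128207941, plus strand, and the other at chr11:43581450-43581471, plus strand. Capitals mark the seed, bases 2 to 8, which both forms share as AGCCCUU.
hsa-miR-129-1-3p: aAGCCCUUaccccaaaaaguau
hsa-miR-129-2-3p: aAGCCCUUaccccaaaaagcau

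Promoters are shown because several of the members with higher signals hold an interferon-linked motif there. RefSeq promoter windows, 250 bases before to 50 after a start site, were at hand for 42 of the 54 members, 8 of them with several windows. The core of the interferon-stimulated response element (ISRE), a site known from the promoters of interferon-induced genes, was searched on both strands as GAAA, any 2 bases, and GAAA again. It was present in 8 of the 42 members and in 3.57% of all 35116 windows in the table, or 4.38% of 27305 genes with a window. Of the 8, TRIM14, TRIM69, TRIM21, TRIM5 and TRIM26 had higher signals with miR-129-3p by 1.5-fold or more, TRIM2 was lower by as much, and TRIM16 and TRIM44 lay between. By group, a match was found in 5 of 11 higher members with a window, in 1 of 4 lower members and in 2 of 15 between. A match is a description of these letters and not a bound site.

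The whole windows of TRIM21 (chr11:4393653-4393952, minus strand) and TRIM14 (chr9:98119173-98119472, minus strand) are printed 5′ to 3′ in the direction of the gene, with the ISRE core in capitals. In TRIM21 a pair of overlapping matches begins 17 and 23 bases after the start site, counted as 0. In TRIM14 the match is on the opposite strand and begins at -26.
TRIM21: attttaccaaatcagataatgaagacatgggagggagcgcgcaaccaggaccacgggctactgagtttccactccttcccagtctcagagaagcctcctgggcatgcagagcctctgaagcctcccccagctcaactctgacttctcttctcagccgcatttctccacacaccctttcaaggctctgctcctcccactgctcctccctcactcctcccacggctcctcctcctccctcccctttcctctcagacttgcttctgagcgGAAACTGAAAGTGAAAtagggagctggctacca
TRIM14: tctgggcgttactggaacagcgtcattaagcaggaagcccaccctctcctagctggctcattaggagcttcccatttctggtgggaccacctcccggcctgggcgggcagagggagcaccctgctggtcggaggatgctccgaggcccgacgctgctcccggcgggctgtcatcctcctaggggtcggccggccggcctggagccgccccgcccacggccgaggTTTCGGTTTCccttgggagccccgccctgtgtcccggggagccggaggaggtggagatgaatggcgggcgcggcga

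For the other members with a match, the core is printed with its flanks, on GRCh38.p14. TRIM5 (chr11:5685067-5685126, minus strand), TRIM69 (chr15:44736441-44736500, plus strand) and TRIM26 (chr6:30213560-30213625, minus strand) carried it on the opposite strand, TRIM26 as an overlapping pair. TRIM2 (chr4:153151921-153151980, plus strand), TRIM44 (chr11:35662715-35662774, plus strand) and TRIM16 (chr17:15682997-15683056, minus strand) carried it on the strand of the gene.
TRIM5: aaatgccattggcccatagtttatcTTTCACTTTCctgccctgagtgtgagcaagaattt
TRIM69: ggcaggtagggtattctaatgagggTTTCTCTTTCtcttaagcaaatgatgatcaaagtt
TRIM26: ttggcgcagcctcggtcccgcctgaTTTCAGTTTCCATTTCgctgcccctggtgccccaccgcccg
TRIM2: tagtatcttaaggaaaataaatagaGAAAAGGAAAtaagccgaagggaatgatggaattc
TRIM44: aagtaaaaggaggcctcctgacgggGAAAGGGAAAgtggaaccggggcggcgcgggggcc
TRIM16: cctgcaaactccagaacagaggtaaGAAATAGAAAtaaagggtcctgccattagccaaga

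A second motif chosen with it is also interferon-linked, the gamma-activated site (GAS). Searched as TTC, any 3 bases and GAA, it gave another distribution. It was present in 7 of the 42 members and in 7.66% of all windows, or 9.38% of 27305 genes with a window. By group, it was found in 0 of the 11 higher members with a window, in 2 of the 4 lower ones and in 4 of the 15 between. Of the 8 interferon-linked members with a window, 5 held the ISRE core and 0 the second motif. TRIM22, TRIM13 and TRIM4 are among the members for which no window was at hand.

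The arrays themselves were alike in range. The median signal was 98.0 on the miR-129-3p array and 96.5 on the control array, and 49.4% of probe sets reached 100 on the miR-129-3p array, against 48.9% on the control array. Where a gene had several measured probe sets, these disagreed by a pooled SD of 0.37 in log2 difference (6179 genes), the only spread available here, and one that holds nothing of the variation from culture to culture. All 5 listed genes of the epithelial line (KRT8, KRT18, KRT7, VIM and CDH2) had signal on both arrays, between 318 and 16201 with miR-129-3p and between 1261 and 18475 in control. All 5 were lower with miR-129-3p, KRT7 by a log2 difference of -1.93, KRT18 by -0.96 and the other 3 by -0.35 to -0.19. The other measured probe set of VIM differed by -0.69 and that of CDH2 by -0.37. Over all 12754 measured genes, 6002 lay below 0. The part of these 5 genes in the differences below was not tested. Of 6 genes of differentiated retinal pigment epithelium, 5 were under 100 on both arrays, among them RPE65 at 6.66 with miR-129-3p and 6.44 in control, while the remaining one, PMEL, read 229 with miR-129-3p and 114 in control (0.92). Of 6 muscle genes, 4 reached 100 with miR-129-3p and 3 in control, with highest signals of 134 with miR-129-3p and 138 in control, so a signal just over 100 was also given by genes of an unrelated tissue. The 5 blood cell genes with a probe set summed to 410 with miR-129-3p and 400.3 in control. Only 1 of them, HBB, reached 100, at 149 with miR-129-3p and 162 in control. PTPRC, the pan-leukocyte gene, read 41.0 with miR-129-3p and 36.9 in control.

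Across the 41 measured members, 15 had a higher signal with miR-129-3p by 1.5-fold or more and 5 a lower one by as much. These are 36.6% and 12.2% of the measured members, beside 17.3% and 10.8% of all 12754 measured genes. The median difference of the members was 0.22 on the log2 scale, beside 0.03 over all measured genes, and 24 members lay above 0 and 17 below. At 2-fold, 8 members were higher and 3 lower, where 7.83% and 4.56% of all genes passed. Of the 41, 36 passed the signal filter on both arrays, 2 (TRIM9 and TRIM47) on the miR-129-3p array alone and 3 (TRIM15, TRIM29 and TRIM36) on the control array alone. Restricted to the 36, 13 were higher and 4 lower, beside 15.7% and 10.4% of all 11539 genes that passed on both arrays.

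**Figure D1:**
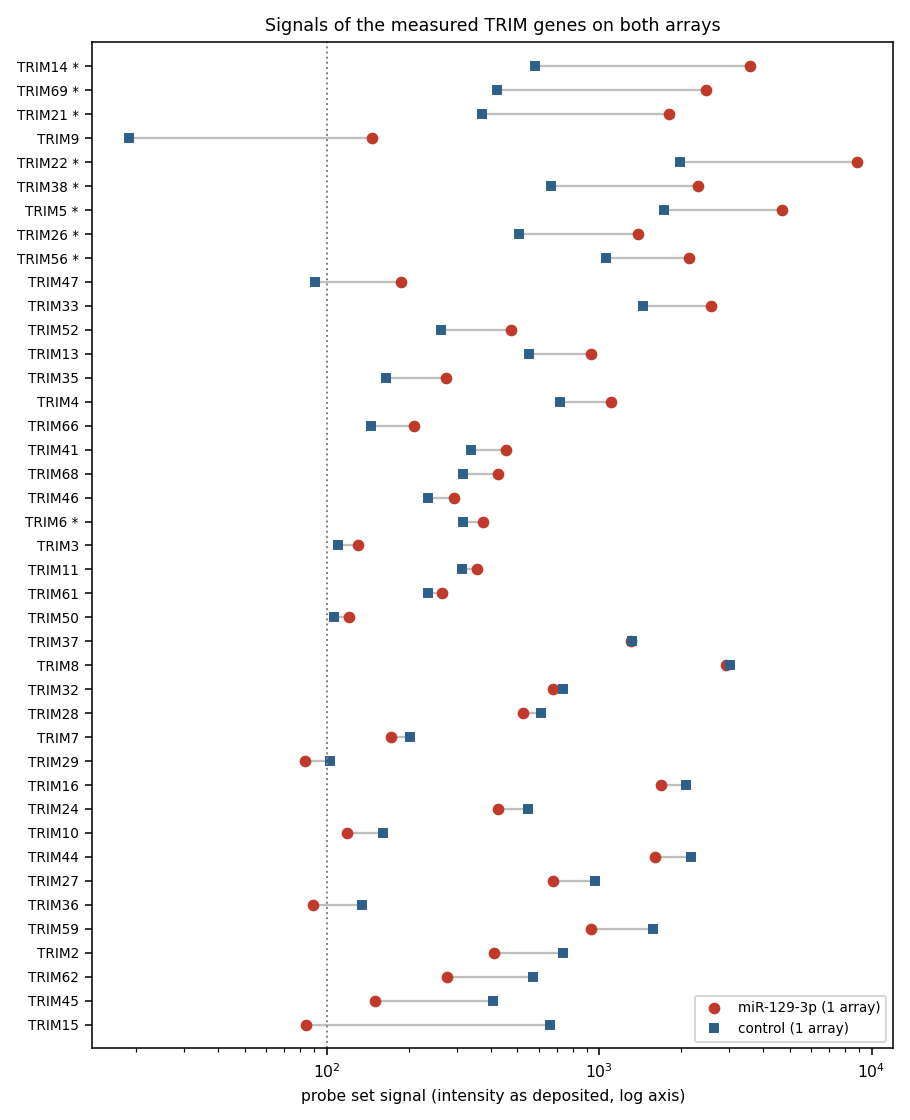
Signals of the 41 measured TRIM genes, with the intensity as deposited on a log axis and 1 row per gene, ordered by log2 difference from highest (TRIM14, 2.59) to lowest (TRIM15, -2.75). Circles are the miR-129-3p array, squares the control array, the dotted line is the filter of 100, and asterisks mark interferon-linked members, 8 of which stand among the first 9 rows.

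Of the 15 members at least 1.5-fold higher, 8 were on a list of interferon-linked members. Of 10 genes listed for this group, which was drawn up with earlier results of these arrays known, TRIM34 had only probe sets that name several genes, and the other 9 were measured. All 9 were above 0, with a median of 1.76, and 8 passed 1.5-fold and 7 passed 2-fold. The 32 measured members outside the group had a median of -0.04. Of these, 7 (21.9%) were at least 1.5-fold higher and 5 (15.6%) lower, closer to the shares over all genes. Because the list was made with results known, the contrast between listed and other members is only a description and was not tested.

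TRIM14, a B-box protein without a RING that serves as an adaptor of the mitochondrial antiviral protein MAVS, read 3590.1 with miR-129-3p and 584 in control, a log2 difference of 2.59 (6.01-fold). It was rank 184 from the top of 12754 genes. Its other 3 measured probe sets were all higher, from 0.78 to 2.69.

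TRIM69, a RING ligase known to act against some RNA viruses, read 2476 with miR-129-3p and 421 in control (2.51, or 5.71-fold). Its other measured probe set read 477 with miR-129-3p and 376 in control, a difference of 0.33, so the probe sets of this gene did not give the same size of difference.

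TRIM21, also called Ro52, is a cytosolic receptor for antibody-coated virus. Its only probe set read 1812 with miR-129-3p and 371 in control, a difference of 2.24 (4.72-fold). TRIM22, which restricts HIV transcription and targets influenza nucleoprotein, likewise had a single probe set, which read 8830.2 with miR-129-3p against 1989 in control, a difference of 2.14 (4.41-fold). Both genes were thus already well over the filter in control cells.

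TRIM38, which dampens Toll-like receptor and TNF signalling, read 2298 with miR-129-3p and 667 in control (1.76, or 3.39-fold). A further 2 of its probe sets differed by 1.69 and 1.90, whereas the fourth, a probe set whose name ends in _x_at, read 1361 with miR-129-3p and 1089.6 in control (0.32). TRIM5, the retroviral capsid restriction factor, read 4698 with miR-129-3p and 1727 in control (1.44, or 2.70-fold), and its dimmer probe set read 121 with miR-129-3p and 39.0 in control (1.31), the control signal under the filter. TRIM26, a nuclear ligase for IRF3, read 1385 with miR-129-3p and 507 in control (1.42, or 2.68-fold) on its only probe set.

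TRIM56, a cytosolic antiviral ligase, read 2129.8 with miR-129-3p and 1061 in control, a difference of 0.99, with 0.89 on its other probe set. Both values fall just short of 2-fold. TRIM6, which makes the free ubiquitin chains that activate the kinase IKK-epsilon, was the exception of the group, at 375 with miR-129-3p and 317 in control (0.23).

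**Figure D2:**
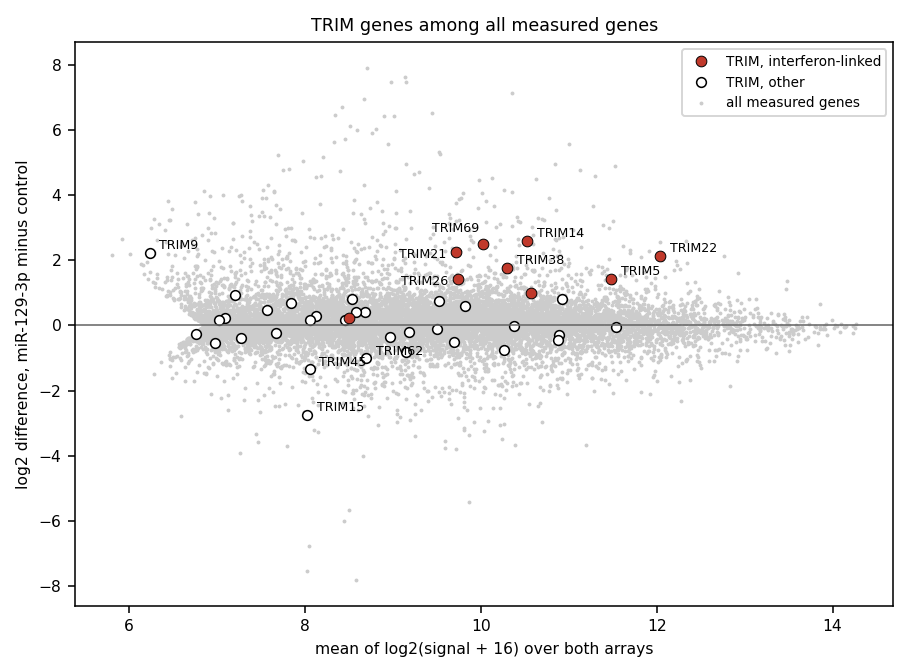
TRIM genes among all 12754 measured genes, with the mean log2(signal + 16) of both arrays on the horizontal axis and the log2 difference, miR-129-3p minus control, on the vertical axis. Filled circles are the 9 interferon-linked members, open circles the other 32, grey dots all genes, and names are given at a difference of 1 or more in size. The interferon-linked members lie above 0, from 0.23 to 2.59, and the largest difference among all genes is 7.90, or 5.55 among those at 100 or more on both arrays.

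Some neighbouring members differed in size or in direction. In the RefSeq table of GRCh38.p14, TRIM5, TRIM6, TRIM34 and TRIM22 lie next to each other on chromosome 11, where TRIM5 (1.44) and TRIM22 (2.14) were higher and TRIM6 differed by 0.23. On chromosome 6, TRIM31, TRIM40, TRIM10, TRIM15 and TRIM26 follow one another. There TRIM26 was higher (1.42) and TRIM15 lower (-2.75, but -0.54 on its other measured probe set). TRIM10, known from erythroid cells, read 118 with miR-129-3p and 161 in control (-0.39). TRIM31 and TRIM40 were under the filter. On chromosome 5, TRIM7 (-0.22) and TRIM41 (0.41) are neighbours, and neither passed 1.5-fold. TRIM47 and TRIM65 are neighbours on chromosome 17, of which TRIM47 was higher and TRIM65 under the filter, so their directions cannot be compared.

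Outside the interferon-linked group, 7 members passed 1.5-fold in the higher direction. TRIM9, a neuronal microtubule-associated ligase that binds the netrin receptor DCC, read 146 with miR-129-3p and 18.8 in control, a log2 difference of 2.22. Because the control signal was under the filter, the difference depends on the constant added. Against a signal of 100 in place of the control value it was at least 1.40-fold higher on the same scale, under the 1.5-fold limit. A further TRIM9 probe set stayed below 100, at 59.3 with miR-129-3p and 9.15 in control.

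TRIM47, a ligase for the deubiquitinase CYLD, read 187 with miR-129-3p and 90.5 in control (0.93), and was at least 1.75-fold higher against a control of 100. TRIM33, also called TIF1-gamma, a chromatin reader that controls SMAD4 in TGF-beta signalling, read 2568 with miR-129-3p and 1446 in control (0.82), with its other 3 probe sets from 0.40 to 1.09. TRIM52, a fast-evolving RING protein, read 474 with miR-129-3p and 263 in control (0.81), with 0.67 on its other probe set.

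TRIM13, an endoplasmic reticulum membrane ligase, read 935 with miR-129-3p and 554 in control (0.74). Its next 2 probe sets differed by 0.76 and 0.73, and the dimmest, at 133 with miR-129-3p and 141 in control, by -0.08. TRIM35, described as a partner of the glycolytic enzyme PKM2, read 275 with miR-129-3p and 165 in control (0.69) on a single probe set. TRIM4, a ligase for the RNA sensor RIG-I, read 1102 with miR-129-3p and 719 in control (0.61), but 645 with miR-129-3p and 622 in control (0.05) on another probe set and 188 with miR-129-3p and 176 in control (0.09) on a further one. Its call rests on 1 probe set near the limit.

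Of the 5 lower members, TRIM15, which binds focal adhesions through paxillin, had the largest difference. It read 84.1 with miR-129-3p and 658 in control, a log2 difference of -2.75. With 100 in place of the miR-129-3p signal, which was under the filter, it was at least 5.81-fold lower. Its other measured probe set read 181 with miR-129-3p and 270.1 in control (-0.54), so the size was not shared between them. TRIM45, a filamin-domain member, read 150.0 with miR-129-3p and 407 in control (-1.35), while its other probe set read 166 with miR-129-3p and 146 in control (0.17), in the opposite direction.

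TRIM62, a ligase linked to epithelial polarity and to the adaptor CARD9, read 276 with miR-129-3p and 572 in control (-1.01, or 2.02-fold lower). Its other measured probe sets differed by -0.80 and -0.27. TRIM2, a neuronal ligase for the neurofilament light chain, read 413 with miR-129-3p and 739 in control (-0.82), with -0.73 and -0.55 on 2 others. TRIM59, a membrane-anchored member that interferes with innate signalling through ECSIT, read 933 with miR-129-3p and 1583 in control (-0.75) on its only probe set.

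**Figure D3:**
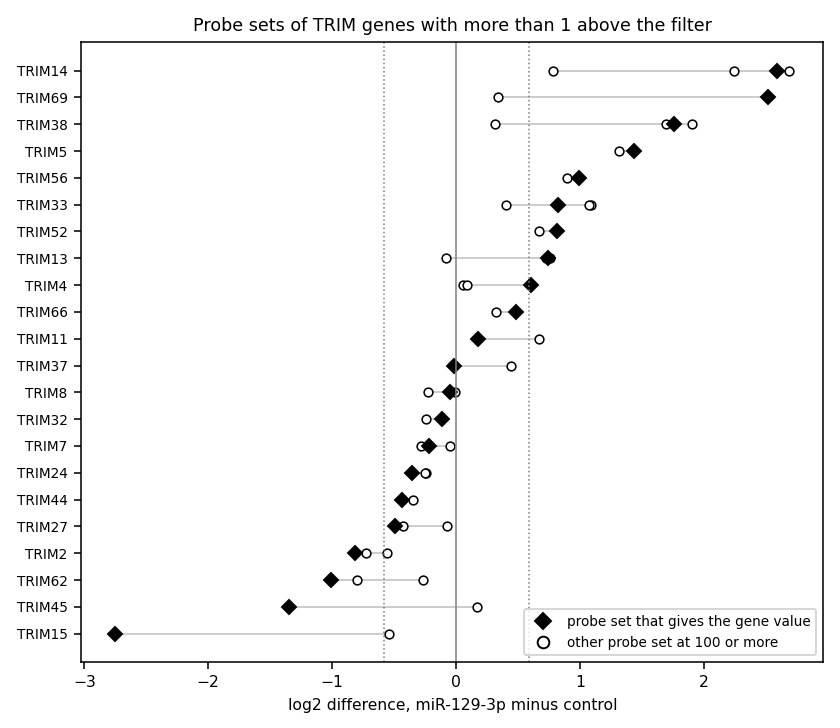
Log2 differences, miR-129-3p minus control, of every probe set at 100 or more on either array, for the 22 members with 2 or more such probe sets, 1 row per gene. Diamonds are the probe sets that give the gene values, circles the others, and dotted lines mark 1.5-fold in each direction. The probe sets of TRIM5 and TRIM56 lie close together, whereas those of TRIM69 run from 0.33 to 2.51 and those of TRIM45 lie on both sides of 0.

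Agreement between probe sets could be examined for 22 members. Of the 9 called higher among them, 4 (TRIM14, TRIM5, TRIM56 and TRIM52) had every measured probe set at least 1.5-fold higher. For TRIM5 this includes a probe set under the filter in control, which was at least 1.18-fold higher against 100. Of the 4 called lower, 0 had every one at least 1.5-fold lower. Counted over all 22 members, called or not, every measured probe set was at least 1.5-fold higher in 4 and lower in 0. The like shares of all 6179 genes with 2 or more measured probe sets, called or not, were 9.61% and 5.57%. TRIM2 came nearest among the lower members, with its smallest difference at -0.55.

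The remaining 21 measured members differed by less than 1.5-fold, from -0.53 (TRIM36) to 0.48 (TRIM66). Among the chromatin members, TRIM28, the KAP1 corepressor of KRAB zinc finger proteins, read 524 with miR-129-3p and 610.2 in control (-0.21). TRIM24, a bromodomain protein that also targets p53, read 425 with miR-129-3p and 548 in control (-0.35), with -0.25 on both of its other measured probe sets. TRIM66 read 209 with miR-129-3p and 145 in control (0.48).

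TRIM37, a ligase that limits centriole assembly, is of interest beside the centriolar theme named in the study's title. It read 1304 with miR-129-3p and 1322 in control (-0.02), with 0.44 on a dimmer probe set. TRIM8, which counters the cytokine inhibitor SOCS1, read 2912 with miR-129-3p and 3016 in control (-0.05), and its other measured probe sets differed by -0.23 and -0.01. TRIM32, an NHL-repeat ligase mutated in a limb-girdle muscular dystrophy, read 677 with miR-129-3p and 735 in control (-0.12).

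TRIM27, a nuclear ligase, read 679 with miR-129-3p and 965 in control (-0.50), with -0.07 and -0.43 on its other probe sets. The RING-less TRIM44 read 1605 with miR-129-3p and 2176 in control (-0.44), with -0.34 on its other measured probe set. TRIM16, which takes part in the response to damaged endomembranes, read 1686 with miR-129-3p and 2087 in control (-0.31). TRIM16 has a near-identical relative, TRIM16L, at 943 with miR-129-3p and 1099.7 in control (-0.22), and their signals may not be separate.

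Of the other members between the limits, TRIM41 (0.41), TRIM68 (0.40), TRIM46 (0.30), TRIM3 (0.22), TRIM11 (0.17), TRIM61 (0.16) and TRIM50 (0.16) lay above 0. TRIM11 also had a dimmer probe set at 128.6 with miR-129-3p and 75.1 in control, which was at least 1.25-fold higher against a control of 100. TRIM7 (-0.22), TRIM29 (-0.26), TRIM10 (-0.39) and TRIM36 (-0.53) lay below 0. TRIM3, TRIM29, TRIM36 and TRIM50 had signals between 83.2 and 135, the range in which muscle genes also gave signal.

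The 13 members under the filter were TRIM17, TRIM31, TRIM40, TRIM42, TRIM51, TRIM54, TRIM55, TRIM58, TRIM63, TRIM65, TRIM67, TRIM71 and TRIM72. Their signals ran from 17.5 to 85.9 over both arrays. They include TRIM54, TRIM55 and TRIM63, the MURF proteins of striated muscle, and TRIM72, which reseals the muscle membrane. TRIM71, an NHL-repeat protein of embryonic stem cells, read 31.2 with miR-129-3p and 17.5 in control. A signal under 100 does not show that a gene was silent, since the files give no detection call.

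**Figure D4:**
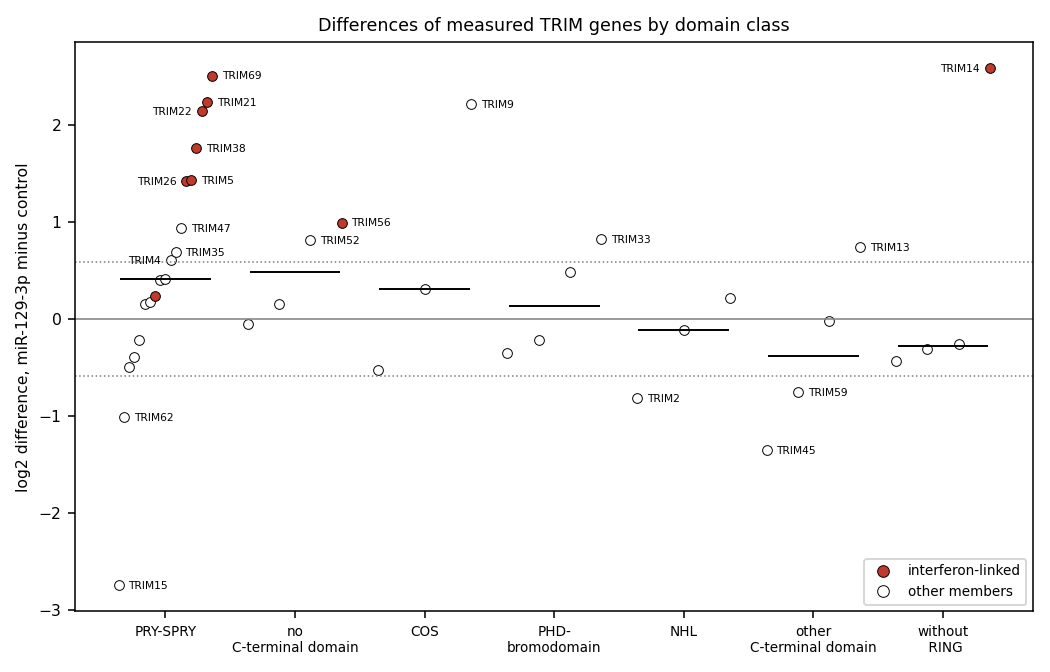
Log2 differences, miR-129-3p minus control, of the 41 measured TRIM genes by domain class, each circle a gene, filled for interferon-linked members, with the class median as a bar and dotted lines at 1.5-fold. The PRY-SPRY class spans the range from -2.75 to 2.51, and 7 of the 9 interferon-linked genes lie in it.

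By C-terminal domain, the class with a PRY-SPRY domain, the fold that recognises capsids and other targets in the antiviral members, held 19 measured genes with a median of 0.41, of which 9 passed 1.5-fold upward and 2 downward, where 17.3% and 10.8% of all measured genes did. It also holds 7 of the 9 measured interferon-linked genes, so domain and interferon link overlap. Each gene was counted in a single class, so this class need not hold every member with a PRY-SPRY domain. TRIM14, counted with the members that lack a RING, is an example, and the other classes were not searched for the domain. The other classes held only 3 or 4 measured genes each. Of 4 measured members with no assigned C-terminal domain, 2 were higher and 0 lower (median 0.49). The 3 COS-box members, which bind microtubules, had 1 higher, TRIM9, and 0 lower. The 4 PHD-bromodomain members had 1 higher, TRIM33, and 0 lower (median 0.13), and the 3 NHL members 0 higher and 1 lower, TRIM2. Of the 4 members with another C-terminal domain, TRIM13 was higher and TRIM45 and TRIM59 lower (median -0.39). Of the 4 in the class without a RING, TRIM14 was higher and the other 3 lay between -0.44 and -0.26. With a single class per gene, this class too need not hold every member that lacks a RING.

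Relatives whose symbols are not TRIM and digits were read from a list of 12 genes, of which 7 were measured, with a median of -0.04. Of the 7, 2 passed 1.5-fold upward and 0 downward, where 17.3% and 10.8% of all measured genes did. PML, or TRIM19, the organiser of PML nuclear bodies, read 907 with miR-129-3p and 164 in control (2.36). Its other 5 measured probe sets differed by 1.07 to 2.20. MID2, or TRIM1, a microtubule-bound COS-box ligase, read 568 with miR-129-3p and 196 in control (1.46), with 0.85 on its other measured probe set. MID1, the close homologue of MID2 also called TRIM18, read 1272 with miR-129-3p and 992 in control (0.35), with 0.28 and 0.42 on its other 2 measured probe sets.

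The E2 enzymes that RING ligases work with were represented by 8 of 15 listed genes. With a median of -0.10, 1 of the 8 passed 1.5-fold upward and 2 downward, where 17.3% and 10.8% of all measured genes did. UBE2L6, the E2 that carries the ubiquitin-like modifier ISG15, read 6301 with miR-129-3p and 529 in control (3.54, or 11.6-fold). UBE2N, the E2 for the K63-linked chains used in innate signalling, read 2727 with miR-129-3p and 4260.5 in control (-0.64). Its other 2 measured probe sets differed by -0.70 and -0.47. UBE2D4 read 619.9 with miR-129-3p and 1110.3 in control (-0.82), with its other 3 measured probe sets from -0.59 to -0.29. For both genes, some probe sets thus fell short of 1.5-fold.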

How the data were processed

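Gene expression was measured on 2 Affymetrix 3' arrays, 1 per group, hybridised with biotinylated cRNA (100 ng total RNA input), per the labels' protocols. The deposited table gives 1 linear intensity per probe set and array. Per the submitters' processing notes, MAS5 and RMA were used; which of them gave the deposited intensities, the scaling between arrays and detection calls are not given in the sources used here, and low intensities may have been compressed upstream. Names came from the platform's annotation table, which gave a single symbol for 41091 of the 54613 probe sets, several for 1801 and no entry for 11721. Gene IDs of all 54 members matched the RefSeq table.

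Differences of log2(intensity + 16) were computed per probe set. Counts use a limit of 1.5-fold. No p-values were computed, since genes are not replicates. Every member could be named; those at least 1.5-fold different and the interferon-linked ones were given with both signals, and the relatives and E2 enzymes where at least 1.5-fold different, with PML, MID1 and MID2 in any case. The members and lists were chosen with earlier results of these data known. Sequences are from RefSeq tables of GRCh38.p14. Code was tested on simulated data. Alternatives covered the constant, scaling, filter, probe set choice and fold limit; filtering on both arrays and agreement of all probe sets were added after seeing the data. Tools were Python 3.11.15 with pandas 2.3.3 and numpy 2.4.6, statsmodels 0.14.6 for loess, and matplotlib 3.10.9 for figures.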

Additional observations from a re-analysis of the deposited data

Results flagged for a closer look

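Probe sets that name several genes, at least 1 of them a TRIM gene, entered no comparison above. Of 13 such probe sets, 7 were measured, of which 4 passed 1.5-fold upward with miR-129-3p and 1 downward, where 4601 and 3128 of all 28782 measured probe sets did. The 4 carried signal above the control array in data not otherwise used, and the gene behind each cannot be told from the annotation. Probe set 221044_s_at read 1186 with miR-129-3p and 484 in control, a log2 difference of 1.27. Probe set 224175_s_at read 127 with miR-129-3p and 60.1 in control, a difference of 0.907, but at least 1.23-fold higher with 100 in place of the control signal. Probe set 222732_at read 706 with miR-129-3p and 429 in control, a difference of 0.70, and 1554250_s_at read 272 with miR-129-3p and 167 in control, a difference of 0.651. The 1 that passed downward, 235476_at, read 192 with miR-129-3p and 384 in control, a difference of -0.945.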

How the results depend on the processing

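No paired analysis was possible because each group held 1 array. The count of members at least 1.5-fold higher, 15, ran from 10 to 15 over the alternatives in constant, scaling, filter and probe set choice, and each of those settings called only members that were among the 15. The count lower, 5, ran from 4 to 6 over the same ones. At fold limits of 2 and 3, 8 and 6 members were higher and 3 and 1 lower. With every measured probe set required to pass, a setting added after seeing the data, 10 were higher and 1 lower; 6 of those 10 and the 1 lower have a single measured probe set, for which this requirement adds nothing. The family median, 0.22, ran from 0.12 with no filter to 0.27, above 0 throughout. The median of the interferon-linked members, 1.76, was 1.21 over 6 genes without probe sets ending in _x_at or _s_at, a setting in which TRIM5, TRIM22 and TRIM38 had no value and TRIM14 was 0.78; no other alternative moved it by more than the spread between probe sets. Of 222 values of named members under alternatives, 12 moved by more than that spread and 0 reversed. Calls ended for TRIM33 (0.40) and TRIM4 (0.09) without _x_at and _s_at probe sets, for TRIM13 (0.54), TRIM2 (-0.37) and TRIM4 (0.26) as means over all probe sets, for TRIM35 (0.57) and TRIM4 (0.58) with a constant of 64, for TRIM4 under quantile normalization (0.52) and loess (0.54), and for TRIM9 (0.48) with signals under 100 set to 100. Members with no value past the filter in a setting are not among these ended calls. Without _x_at and _s_at probe sets, TRIM2 also had none. With 100 or more required on both arrays, TRIM9, TRIM47 and TRIM15 had none, nor had TRIM9 and TRIM47 at a mean of 200 or more. TRIM69 was 1.02 and TRIM15 -1.12 as means over all their probe sets. The 3 scalings moved no member by more than 0.11. The precision of every value is limited by the 2 arrays.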
